A study of Mus musculus with 12 samples.

Results

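The genes described here are 10 mouse genes of fatty acid uptake and lipid droplets: Fabp4, Fabp5, Lpl, Cd36, G0s2, Plin2, Pnpla2, Lipe, Angptl4 and Cidec. They were taken by name, and every probe set that the platform annotation gives to them was read, 19 of the 22626 probe sets on the array. They make up 10 of the 12393 genes tested. RNA came from cultured fibroblasts of the stromal vascular fraction of fat, the cells left once fat cells are removed, and was read on 12 Affymetrix arrays. The mice were Zfp423-GFP transgenic males aged 6 to 8 weeks on an FVB and C57BL/6 background. Zfp423 is a zinc-finger factor of preadipocytes, and green fluorescent protein (GFP) served to sort the cells. What drives the transgene is not given in the sources used here.

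Each depot, inguinal fat under the skin and epididymal fat in the abdomen, gave a GFP+ and a GFP- group, each with 3 arrays. All groups carried the transgene. Cells were sorted from the cultures, put back into culture in DMEM/F12 with serum, and collected below confluence before they stopped dividing, with no differentiation mixture named in the labels. The design speaks of triplicates without saying whether these were separate mice or sorts, so the spread behind each p-value may be partly or wholly technical. In bulk RNA, fewer cells with a transcript and less transcript per cell cannot be told apart.

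Fat cells take up fatty acids that lipoprotein lipase releases from circulating lipoproteins, and the membrane protein CD36 helps them enter. Fatty acid binding proteins carry them inside the cell, triglyceride is stored in droplets coated by perilipins, and lipases release it again. Many of these genes are known targets of the nuclear receptor PPARgamma and are switched on as preadipocytes mature. Several, among them Fabp4, Fabp5, Cd36, Lpl and Plin2, are also expressed by macrophages.

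Array medians lay between 347 and 371.2, and arrays of a group correlated across 12393 genes at r from 0.993 to 0.995, a description, since genes are not replicates. Zfp423 signal averaged 124 ± 22.9 (SD, n = 3) in inguinal GFP+, 57.4 ± 13.8 in inguinal GFP-, 242 ± 35.1 in epididymal GFP+ and 29.4 ± 3.80 in epididymal GFP-. The 11 measured fibroblast markers all had a mean of at least 80 in every group but epididymal GFP-, where 10 did. A signal of 80 was taken as the level near background. For scale, 31 olfactory receptor genes, which fibroblasts do not use, had medians between 17.0 and 27.4 across arrays. Their 95th percentile was 47.5 to 62.9 on inguinal and 69.3 to 97.2 on epididymal arrays, so it differed by depot. The part of this difference in the depot contrasts of dim genes was not tested.

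Of the 10 genes, 7 were read well above that level somewhere. Lpl, Fabp5, Plin2 and Angptl4 were bright in every group of these cultures, and Fabp4 in all but epididymal GFP-, where it averaged 300. Pnpla2 was moderate throughout and G0s2 in every group but epididymal GFP-. Lipe lay around 80, and Cd36 and Cidec lay below it in every group. Differences were tested with limma on log2(signal + 16) over all 12393 genes, each gene standing by its brightest probe set, and "called" means a Benjamini-Hochberg adjusted p under 0.05. Fold changes are log2 values on that scale, which understates those of dim genes. In inguinal cells 3 of the 10 were higher in GFP+ and 2 lower, where 12.6% of all genes were called (5.26% higher and 7.29% lower). In epididymal cells 4 were higher and 2 lower, against 41.9% of all genes (21.5% higher and 20.3% lower). The members' median log2 fold change was 0.04 in inguinal and -0.02 in epididymal cells, against -0.01 and 0.01 for all genes, so the members had no common direction.

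**Figure D1:**
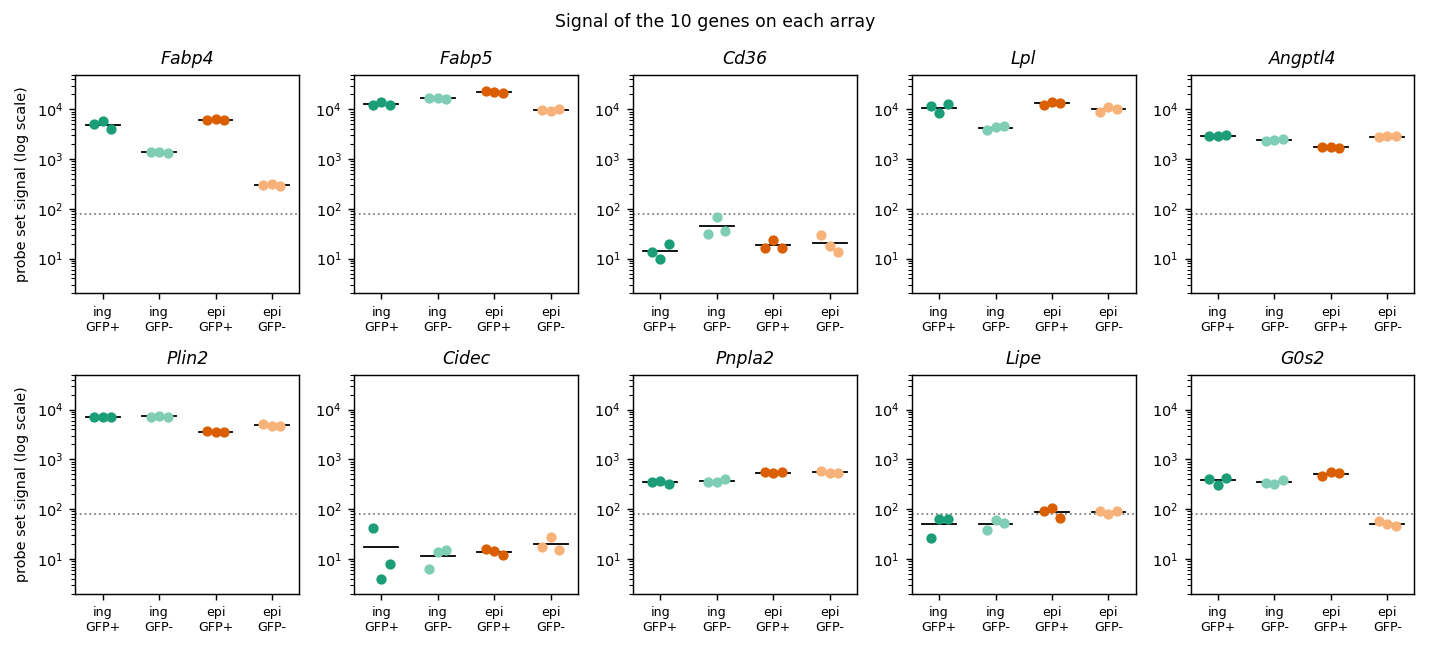
Signal of the brightest probe set of each gene on the 12 arrays (vertical axis, log scale), by depot (ing, inguinal; epi, epididymal) and sorted fraction; points are arrays, bars are group means and the dotted line marks a signal of 80. Fabp4 and G0s2 drop in epididymal GFP-, to means of 300.1 and 51.2, and every array of Cd36 and Cidec lies below 80.

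The fatty acid carriers come first. Fabp4, the carrier of fat cells also called aP2, signalled 5013, 5703 and 4022 in inguinal GFP+ and 1399, 1417 and 1301 in inguinal GFP-. It read 6169, 6471 and 6031 in epididymal GFP+ and 295, 318 and 288 in epididymal GFP-. No neighbouring groups in this order overlapped: epididymal GFP+ was highest, then inguinal GFP+, inguinal GFP- and epididymal GFP-. Fabp4 rose in GFP+ cells by 1.81 ± 0.09 (SE) in inguinal (adjusted p = 1.14e-09, limma) and by 4.30 ± 0.09 in epididymal cultures (adjusted p = 1.66e-15). As ratios of mean signal these are 3.58-fold and 20.7-fold. Between depots the direction differed by fraction. In GFP- cells inguinal was higher by 2.13 ± 0.09 (limma adjusted p = 4.94e-12), while in GFP+ cells it was lower, by -0.35 ± 0.09 (adjusted p = 0.00317). The second bright Fabp4 probe set gave -0.28 for the smaller of these (limma adjusted p = 0.00839, all probe sets fitted). Averaged over all 4 probe sets of Fabp4, which brings in dim ones, the smaller was -0.02 (limma adjusted p = 0.914).

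Fabp5, the paralogous carrier first known from epidermis, followed another order. Its signal was 12341, 14253 and 11990.2 in inguinal GFP+ and 16971, 17203 and 16436 in inguinal GFP-. It was 23075, 22043 and 21621 in epididymal GFP+ and 9871, 9338 and 9917 in epididymal GFP-. No groups overlapped, and inguinal GFP- stood above inguinal GFP+. Fabp5 thus fell in inguinal GFP+ cells (-0.39 ± 0.05, limma adjusted p = 3.67e-05) and rose in epididymal GFP+ cells (1.19 ± 0.05, adjusted p = 8.35e-12). Inguinal cells had less than epididymal cells in the GFP+ fraction (-0.79 ± 0.05, limma adjusted p = 2.17e-09) and more in the GFP- fraction (0.80 ± 0.05, adjusted p = 8.55e-10).

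Cd36, the membrane fatty acid translocase, was near background throughout. Its brightest probe set read 13.8, 10.0 and 19.6 in inguinal GFP+, 31.5, 68.9 and 35.6 in inguinal GFP-, 16.3, 23.9 and 16.5 in epididymal GFP+ and 30.1, 17.9 and 13.8 in epididymal GFP-. The inguinal GFP- arrays were the highest of the 12. The inguinal GFP contrast was called (-0.97 ± 0.26, limma adjusted p = 0.0201), as was the depot contrast in GFP- cells (0.72 ± 0.26, adjusted p = 0.0276). Neither held throughout, and since both sides lay under 80 no ratio is given. Leaving out the second GFP- array of the inguinal depot gave -0.71 (limma adjusted p = 0.11) and 0.46 (adjusted p = 0.159), and averaging the 3 probe sets -0.72 (adjusted p = 0.0645) and 0.58 (adjusted p = 0.0515). The first was also lost without inguinal GFP+ replicate 1 (limma adjusted p = 0.0592) or 2 (adjusted p = 0.0612), and the second without epididymal GFP- replicate 2 (adjusted p = 0.0746) or 3 (adjusted p = 0.109).

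Markers of macrophages, which carry CD36, moved with that group. The summed signal of 18 macrophage markers ranged from 13883 to 16177 on the inguinal GFP- arrays, from 6294 to 6853 in inguinal GFP+, from 3979 to 4295 in epididymal GFP+ and from 3819 to 4235 in epididymal GFP-. Of these markers 16 had a mean of at least 80 in inguinal GFP- cells, 7 in each GFP+ group and 10 in epididymal GFP-. The sums rest in part on Cd53 and Csf1r, which at means of 4110 and 1125 made up most of the inguinal GFP+ sum. Cd53 rose with GFP in both depots (0.92 and 2.04, limma adjusted p = 2.61e-07 and 1.28e-12), while Csf1r fell in inguinal (-0.76, adjusted p = 4.13e-07) and rose in epididymal cells (1.05, adjusted p = 6.2e-10). Counted by gene, 1 of the 18 markers was higher and 13 lower in inguinal GFP+ than GFP- cells (5.26% and 7.29% of all genes). In epididymal GFP+ cells 2 were higher and 8 lower (21.5% and 20.3% of all genes). The markers' median log2 fold changes were -2.55 and -0.41. The part of these markers in the results for Cd36, Fabp4, Fabp5, Lpl and Plin2, genes that macrophages also express, was not tested.

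The extracellular lipase and its regulator are next. Lpl, the enzyme that frees fatty acids from lipoproteins, signalled 11414, 8464 and 12566 in inguinal GFP+, and 3916, 4439 and 4554 in inguinal GFP-. The epididymal arrays read 12449, 13954 and 13173 in GFP+ and 8638, 11169.6 and 10101 in GFP-. Inguinal GFP- stood below all other arrays, and inguinal GFP+ overlapped both epididymal groups. Lpl rose in GFP+ cells by 1.31 ± 0.11 in inguinal (limma adjusted p = 8.71e-07) and 0.41 ± 0.11 in epididymal cultures (adjusted p = 0.00813), the latter 0.31 with adjusted p = 0.0551 without epididymal GFP- replicate 1. In GFP- cells the inguinal depot had less Lpl (-1.20 ± 0.11, limma adjusted p = 1.63e-07). In GFP+ cells the groups overlapped, and the call there (-0.30 ± 0.11, limma adjusted p = 0.0361) gave -0.14 (adjusted p = 0.201) without inguinal GFP+ replicate 2. It was also lost without epididymal GFP+ replicate 2 (adjusted p = 0.125) or 3 (adjusted p = 0.0818), after median centring (-0.22, adjusted p = 0.104), with only the compared groups fitted (limma adjusted p = 0.0659) and without a variance trend (adjusted p = 0.113).

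Angptl4, a secreted inhibitor of lipoprotein lipase that rises with fatty acids and fasting, read 2905, 2854 and 3104 in inguinal GFP+ and 2258, 2392 and 2538 in inguinal GFP-. It read 1786, 1784 and 1669 in epididymal GFP+ and 2733, 2856 and 2865 in epididymal GFP-. Epididymal GFP+ was the lowest group and did not overlap the others, while inguinal GFP+ and epididymal GFP- overlapped at the top. Angptl4 rose with GFP in inguinal cells (0.30 ± 0.05, limma adjusted p = 0.00034) and fell with it in epididymal cells (-0.69 ± 0.05, adjusted p = 4.65e-09). Averaged with its second, dim probe set the inguinal value was 0.29 (limma adjusted p = 0.158). Inguinal cells had more Angptl4 in the GFP+ fraction (0.75 ± 0.05, limma adjusted p = 2.34e-09) and less in the GFP- fraction (-0.23 ± 0.05, adjusted p = 0.000497). Lpl and its inhibitor thus both rose in inguinal GFP+ cells, and in epididymal GFP+ cells Lpl rose while Angptl4 fell. The suffix of this probe set (_s_at) marks probes that can match transcripts of several genes, although the annotation names Angptl4 alone.

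**Figure D2:**
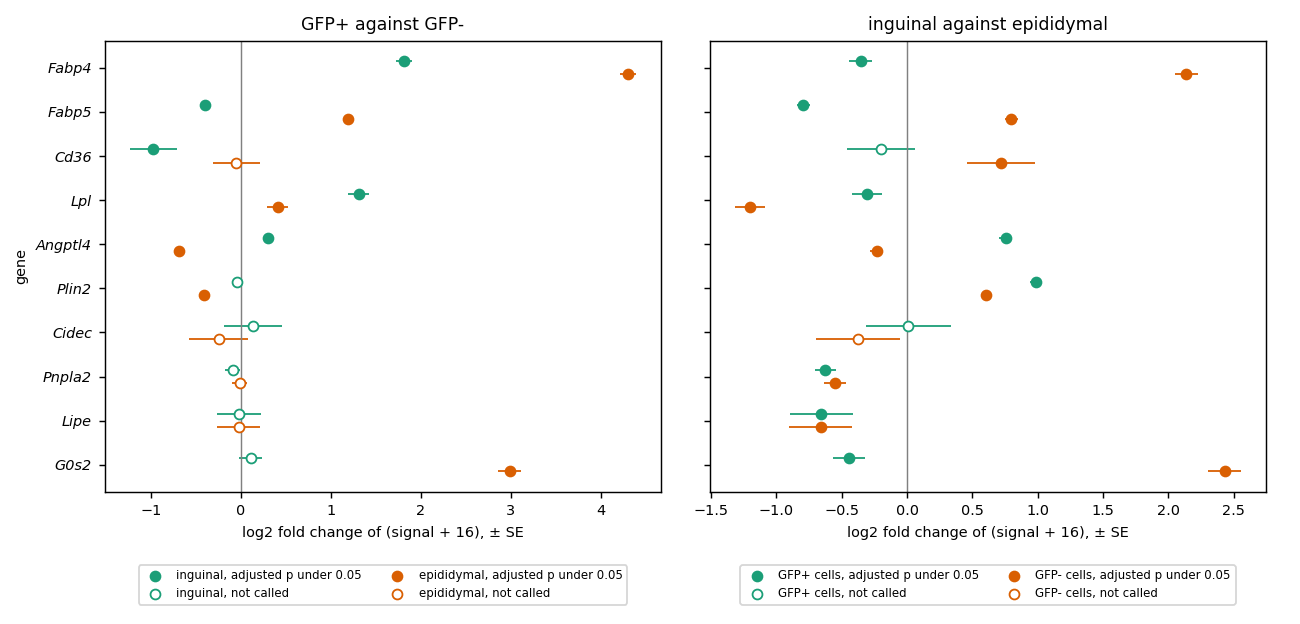
Log2 fold changes of the 10 genes with standard errors (horizontal axis), GFP+ against GFP- in each depot (left) and inguinal against epididymal in each fraction (right); filled points have an adjusted p under 0.05. Fabp5 and Angptl4 lie on opposite sides of 0 in the depots on the left, and Pnpla2 and Lipe lie at 0 on the left and below 0 on the right.

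Among the droplet proteins, Plin2 and Cidec differed in detection. Plin2, the perilipin that coats droplets in most cell types (also called ADRP), signalled 7139, 7255 and 6992 in inguinal GFP+ and 7249, 7602 and 7115 in inguinal GFP-. In epididymal cells it signalled 3743, 3485 and 3574 in GFP+ and 5091, 4651 and 4676 in GFP-. The inguinal groups overlapped each other and lay above both epididymal groups, with epididymal GFP+ lowest. The inguinal GFP contrast was not called (-0.04 ± 0.04, 95% interval -0.12 to 0.04, limma adjusted p = 0.628), and the epididymal one was lower (-0.41 ± 0.04, adjusted p = 2.07e-07). Plin2 was higher in inguinal cells of both fractions, by 0.98 ± 0.04 in GFP+ (limma adjusted p = 9.73e-12) and 0.61 ± 0.04 in GFP- cells (adjusted p = 1.31e-09).

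Cidec, the protein that fuses droplets into the single large one of white fat cells (mouse Fsp27), was read at 4.02 to 40.9 over the 12 arrays. Its highest and lowest arrays were both inguinal GFP+. No contrast was called (limma adjusted p from 0.36 to 0.988), and at this signal a difference could not be measured.

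Of the lipolysis genes, Pnpla2 differed by depot and G0s2 by group, and Lipe stood near background. Pnpla2, the lipase (ATGL) that takes the first fatty acid off triglyceride, read 343, 370.3 and 325 in inguinal GFP+ and 348, 355 and 406 in inguinal GFP-. It read 546, 531 and 550.4 in epididymal GFP+ and 589, 522 and 536 in epididymal GFP-. The fractions overlapped within each depot, and all 6 epididymal arrays lay above all 6 inguinal ones. The GFP contrast was -0.09 (95% interval -0.26 to 0.09, limma adjusted p = 0.588) in inguinal and -0.01 (-0.19 to 0.16, adjusted p = 0.92) in epididymal cells. Inguinal cells had less, by -0.63 ± 0.08 in GFP+ (limma adjusted p = 9.85e-06) and -0.55 ± 0.08 in GFP- cells (adjusted p = 2.56e-05).

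Lipe, hormone-sensitive lipase, which acts next on diglyceride, was dim: 26.5, 63.5 and 63.7 in inguinal GFP+, 38.0, 60.3 and 52.1 in inguinal GFP-, 91.4, 104 and 65.9 in epididymal GFP+ and 91.1, 81.0 and 90.8 in epididymal GFP-. The depots did not overlap in either fraction, but epididymal means of 87.1 and 87.6 were close to the background level. The olfactory receptor genes also had the higher 95th percentile on epididymal arrays (69.3 to 97.2, against 47.5 to 62.9 on inguinal ones). The inguinal contrasts were called at -0.66 ± 0.24 in both GFP+ (limma adjusted p = 0.0329) and GFP- cells (adjusted p = 0.0299). Quantile normalization gave -0.45 (limma adjusted p = 0.155) and -0.52 (adjusted p = 0.093), and leaving out the first array of the inguinal group gave -0.35 (adjusted p = 0.188) and -0.52 (adjusted p = 0.123). The GFP+ call was lost as well after median centring (-0.58, limma adjusted p = 0.058), with only the compared groups fitted (adjusted p = 0.0815), without a variance trend (adjusted p = 0.0527) and without epididymal GFP+ replicate 1 (adjusted p = 0.0856) or 2 (adjusted p = 0.126). The GFP- call was lost without inguinal GFP- replicate 3 (limma adjusted p = 0.0535), epididymal GFP- replicate 1 (adjusted p = 0.0735) or 3 (adjusted p = 0.0733). The GFP contrasts were -0.02 in both depots (limma adjusted p = 0.975 and 0.956), with 95% intervals from -0.53 to 0.49 and from -0.54 to 0.49.

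G0s2, a small protein that binds and inhibits ATGL, read 398, 312 and 419.8 in inguinal GFP+, 335, 319 and 384 in inguinal GFP- and 471, 553 and 523 in epididymal GFP+. In epididymal GFP- it read 57.8, 50.2 and 45.5, under the background level on every array. The inguinal groups overlapped and were not called apart (0.11 ± 0.13, 95% interval -0.16 to 0.38, limma adjusted p = 0.678). In epididymal cells G0s2 rose with GFP by 2.99 ± 0.13 (limma adjusted p = 1.03e-11). Since the lower group lay under 80, the mean ratio is better given as a bound, at least 6.45-fold against a signal of 80. Inguinal cells had less in the GFP+ fraction (-0.45 ± 0.13, limma adjusted p = 0.00739) and more in the GFP- fraction (2.43 ± 0.13, adjusted p = 8.41e-11), where the bound against a signal of 80 is at least 4.33-fold.

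Over the depot contrasts, 2 of the 10 genes were higher and 6 lower in inguinal than in epididymal GFP+ cells, where 50.8% of all genes were called (23.6% higher and 27.2% lower). In GFP- cells 5 were higher and 4 lower, against 53.7% of all genes (27.4% higher and 26.3% lower). The members' median log2 fold change was -0.33 in GFP+ and 0.19 in GFP- cells, against -0.04 and -0.02 for all genes. The size of the members' changes, whatever the direction, had a median of 0.54 and 0.69, against 0.25 and 0.28 for all genes. This is a description, since the members were chosen with earlier results of these data known. All genes also include dim ones, whose changes the scale understates. The interaction, inguinal minus epididymal GFP contrast, was called for 6 of the 10, with 3 above and 3 below 0, against 34.8% of all genes (16.1% above and 18.7% below). Fabp4 (-2.49 ± 0.12, limma adjusted p = 1.95e-10), Fabp5 (-1.59 ± 0.07, adjusted p = 3.99e-11) and G0s2 (-2.88 ± 0.18, adjusted p = 2.28e-09) had the more positive GFP effect in epididymal cells. The G0s2 value is set against an epididymal GFP- signal under 80, so its size depends on the background. Lpl (0.90 ± 0.16, limma adjusted p = 0.000332), Angptl4 (0.99 ± 0.07, adjusted p = 6.89e-09) and Plin2 (0.38 ± 0.05, adjusted p = 4.59e-05) had it in inguinal cells. These contrasts share groups, so their calls are not independent of each other.

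Markers of 3 further cell types were read beside these levels. The 9 measured markers of mature fat cells were low: their summed signal ran from 324 to 403 on inguinal and from 549.3 to 609 on epididymal arrays. At their 95th percentile the olfactory receptor genes also read higher on epididymal arrays. The defining secreted products adiponectin (Adipoq), leptin (Lep) and resistin (Retn) had group means between 5.55 and 42.4. Plin4, the perilipin of nascent droplets, was the marker above 80 in all groups. It averaged 173 and 194 in inguinal GFP+ and GFP- cells, and 313 and 264 in their epididymal counterparts. The marker Car3 averaged 69.9 and 59.9 in inguinal, and 107 and 131 in epididymal GFP+ and GFP- cells. Of the 9, 0 were called higher and 1 lower in inguinal than in epididymal GFP+ cells (50.8% of all genes called). In GFP- cells these counts were 0 and 4 (53.7%). The 10 mesothelial markers, of the cell layer over abdominal organs, summed to 40365 to 43108 in epididymal GFP-, 7439 to 7709 in epididymal GFP+, 1965 to 2316 in inguinal GFP+ and 1650.3 to 1801 in inguinal GFP- arrays. In inguinal GFP+ and GFP- cells 8 and 7 of the 10 had means under 80, and Krt19 (1292 and 1186) made up most of the sum. Krt19 was higher there than in epididymal cells (191 and 216). By contrast, 8 markers were lower in inguinal GFP+ and 9 in GFP- cells, against 27.2% and 26.3% of all genes. The 13 endothelial markers summed to 5875 to 6206 in epididymal GFP-, 1585 to 1620.4 in epididymal GFP+ and 969 to 1299 on inguinal arrays. Kdr (4469) and Esam (825) made up most of the epididymal GFP- sum, while 10 of the 13, the defining Pecam1 (17.5) among them, had means under 80 there. The epididymal GFP- group, lowest in Fabp4, Fabp5 and G0s2, was thus the highest in both sums. The part of these markers in those results was not tested.

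Of the 19 probe sets, 15 were called in at least 1 of the 5 contrasts when all 22626 probe sets were fitted, against 65.8% of all. The bright pairs moved alike. The second Fabp4 probe set averaged 4906 and 1285 in inguinal GFP+ and GFP- cells and 5964 and 305 in their epididymal counterparts, with GFP contrasts of 1.92 and 4.23. The second Fabp5 probe set gave -0.33 and 1.51, and the second Lpl probe set 1.53 and 0.53, each with the sign of the first. Between depots in GFP+ cells the second Lpl probe set gave -0.38 (limma adjusted p = 0.0432). The remaining sets that did not stand for their gene were dim. Those of Fabp4 had group means of 10.2 to 34.3, with 1 called higher in inguinal GFP+ cells (0.81, limma adjusted p = 0.0233), and the second Angptl4 one had 12.6 to 28.1. The second Pnpla2 set had group means of 37.9 to 89.5. It was lower in inguinal than in epididymal GFP+ cells (-0.94, limma adjusted p = 0.00892) but not called in GFP- cells (-0.61, adjusted p = 0.0715). Another Cd36 probe set called the inguinal GFP contrast (-1.08, limma adjusted p = 0.015), from means of 2.82 and 23.9, the depot contrast in GFP- cells (0.67, adjusted p = 0.047) and the interaction (-1.11, adjusted p = 0.0345). The third Cd36 probe set did not (-0.11, limma adjusted p = 0.894).

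**Figure D3:**
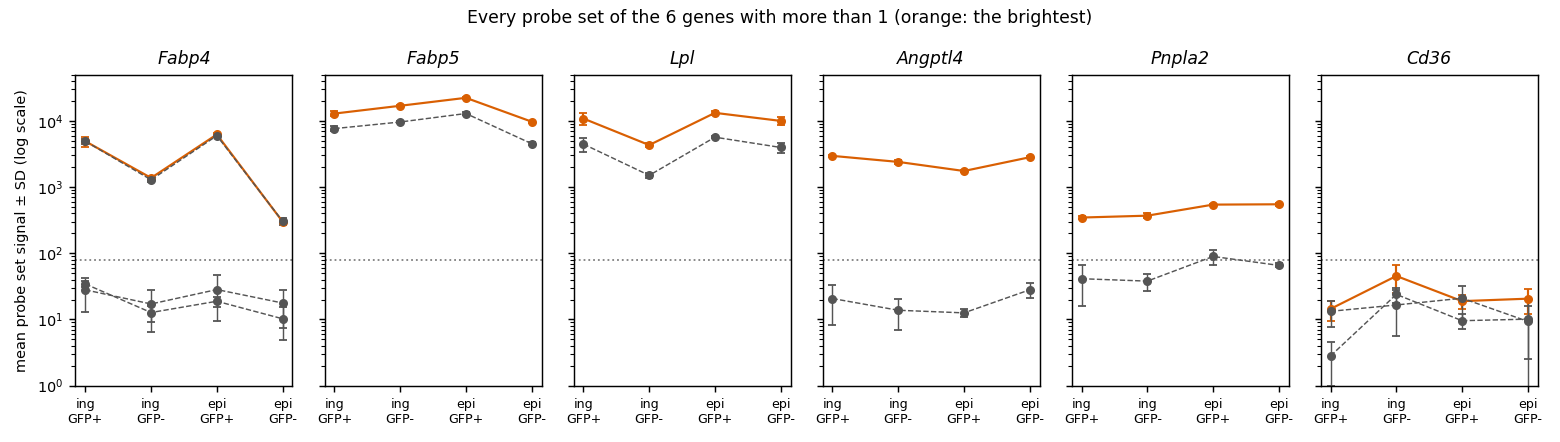
Mean signal ± SD of every probe set (vertical axis, log scale; 3 arrays a group) for the 6 genes with several; orange is the brightest, grey dashed lines the others and the dotted line a signal of 80. The paired bright probe sets of Fabp4, Fabp5 and Lpl run in parallel. The brightest sets of Angptl4 and Pnpla2 lie above 80, and all other sets near or below it.

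The promoters of G0s2 and Plin2 are shown because, among the 6 members with an entry in the RefSeq promoter table, these had called epididymal GFP contrasts, in opposite directions, G0s2 from a signal under 80 in GFP- cells. Each is the 250 bases before the gene's start on GRCm38.p6, minus strand, at chr1:193273189-193273438 for G0s2 and chr4:86670060-86670309 for Plin2. Capitals mark every match to a searched motif on either strand.
G0s2: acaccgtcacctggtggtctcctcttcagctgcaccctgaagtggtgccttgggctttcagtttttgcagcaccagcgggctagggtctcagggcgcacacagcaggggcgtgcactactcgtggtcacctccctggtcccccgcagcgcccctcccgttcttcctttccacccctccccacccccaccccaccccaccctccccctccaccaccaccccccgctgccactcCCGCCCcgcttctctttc
Plin2: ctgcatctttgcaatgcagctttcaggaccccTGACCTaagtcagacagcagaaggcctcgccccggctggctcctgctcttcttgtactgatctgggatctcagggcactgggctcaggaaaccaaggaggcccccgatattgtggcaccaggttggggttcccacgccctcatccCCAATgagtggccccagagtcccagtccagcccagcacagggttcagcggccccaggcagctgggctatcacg
DR1, the direct repeat of AGGTCA with a spacer of 1 base that PPARgamma binds with RXR, had no match in either window and occurs in 0.0335% of the 32851 promoter windows. A lone AGGTCA, which also lies within that repeat, matched Plin2 once, on the reverse strand 218 bases before the start, and occurs in 14.0% of windows. CCAAT matched Plin2 once, 73 bases before the start (33.8% of windows), and the GC box GGGCGG matched G0s2 once on the reverse strand, 18 bases before the start (32.7%). The TATA box TATAAA (12.4% of windows), the AP-1 site TGACTCA (4.46%) and the E-box CACGTG (6.02%) matched neither. A match is a description of letters, and these windows leave out distant enhancers.

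Other genes of the same pathways were read from 6 lists. Their counts are set beside the shares of all genes called, and their median log2 fold changes in the GFP contrasts beside those of all genes, -0.01 in inguinal and 0.01 in epididymal cells. The first list held 9 measured nuclear receptors and coactivators, not all of which sense fatty acids themselves. Of these, Pparg, which encodes PPARgamma, was the only one called by limma in the GFP contrasts: 838 ± 64.6 in inguinal GFP+ and 335 ± 26.1 in GFP- (1.28 ± 0.15, adjusted p = 1.36e-05), 214 ± 28.0 in epididymal GFP+ and 35.6 ± 11.5 in GFP- (2.17 ± 0.15, adjusted p = 3.38e-09). The last of these means is under 80. This is 1 of 9 in each depot, where 12.6% (inguinal) and 41.9% (epididymal) of all genes were called, and the list's medians were -0.01 and -0.14. Inguinal exceeded epididymal Pparg in both GFP+ (1.90 ± 0.15, limma adjusted p = 2.57e-08) and GFP- cells (2.79 ± 0.15, adjusted p = 9.9e-11). Between depots 2 of the 9 were higher and 3 lower in inguinal GFP+ cells (50.8% of all genes called), and 1 and 4 in GFP- cells (53.7%), with the coactivator Ppargc1b (-1.51 and -1.38, inguinal means under 80) and the partner receptor Rxrb (-0.58 and -0.49) among the lower.

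Of 17 measured genes of fatty acid transport and activation, 3 rose and 0 fell with GFP in inguinal cells (12.6% of all genes called), and 4 rose and 5 fell in epididymal cells (41.9%). The list's medians were 0.02 and -0.10. The muscle and heart carrier Fabp3 averaged 374 ± 21.8 in GFP+ and 291 ± 29.7 in GFP- cells of the inguinal depot, and 285 ± 19.3 and 573 ± 20.8 in those of the epididymal depot. It rose by 0.35 ± 0.09 in inguinal cells (limma adjusted p = 0.018) and fell by 0.97 on the log2 scale in epididymal cells (adjusted p = 2.33e-07), the reverse of Fabp5 in both. Fabp7, the carrier of brain and glia, was higher in inguinal cells of both fractions (1.93 ± 0.19 and 3.03 ± 0.19, limma adjusted p = 4.92e-07 and 1.12e-09). Its epididymal GFP- mean of 62.2 was under 80, so the size of the latter value depends on the background. Caveolin, Cav1, coat of the surface pits known as caveolae, fell with GFP in epididymal cells (-0.69 ± 0.05, limma adjusted p = 4.57e-09). Between depots 6 were higher and 4 lower in inguinal GFP+ cells (50.8% of all genes called), and 3 and 5 in GFP- cells (53.7%).

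Of 10 measured genes that handle lipoprotein lipase and lipoproteins, 0 rose and 2 fell with GFP in inguinal cells (12.6% of all genes called), and 3 rose and 3 fell in epididymal cells (41.9%). The list's medians were -0.01 and 0.03. The sorting receptor Sort1 fell in both (-0.49 ± 0.09, limma adjusted p = 0.00188, and -1.02 ± 0.09, adjusted p = 1.42e-07) and was lower in inguinal than in epididymal cells (-2.60 and -3.13). The apolipoprotein Apoe, also a macrophage product, was called lower in inguinal GFP+ cells (-0.79 ± 0.20, limma adjusted p = 0.0149). Its means there were 39.8 in GFP+ and 81.2 in GFP-. Apoe was also lower in epididymal GFP+ cells (-1.64 ± 0.20, limma adjusted p = 4.86e-06). Its means there were 78.8 in GFP+, under 80, and 272 in GFP-, its highest group. Between depots 0 were higher and 3 lower in inguinal GFP+ cells (50.8% of all genes called), and 3 and 3 in GFP- cells (53.7%).

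Of 13 measured lipid droplet genes, 1 rose and 1 fell with GFP in inguinal cells, and 4 rose and 2 fell in epididymal cells, close to the shares of all genes called (12.6% and 41.9%). The list's medians were 0.07 and 0.10. The perilipin Plin3 rose by 0.17 ± 0.04 in inguinal cells (limma adjusted p = 0.0196) and fell in epididymal cells (-0.12 ± 0.04, adjusted p = 0.0373; interaction 0.29, adjusted p = 0.0017). Seipin, Bscl2, a droplet assembly protein, fell by 0.16 in inguinal (adjusted p = 0.0218) and 0.27 in epididymal cells on the log2 scale (adjusted p = 8.24e-05). Hilpda, an inhibitor of ATGL like G0s2, rose by 0.26 ± 0.07 in epididymal GFP+ cells (limma adjusted p = 0.00657). Between depots 3 were higher and 4 lower in inguinal GFP+ cells (50.8% of all genes called), with Plin4 lower (-0.80 ± 0.12, limma adjusted p = 5.5e-05), and 3 and 5 in GFP- cells (53.7%).

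Of 9 measured further lipolysis genes, 0 rose and 1 fell with GFP in inguinal cells (12.6% of all genes called), and 4 rose and 1 fell in epididymal cells (41.9%). The list's medians were 0.01 and -0.04. The gene that fell in both was Mgll, the lipase that splits the last monoglyceride (-0.76 ± 0.09, limma adjusted p = 2.55e-05, and -2.05 ± 0.09, adjusted p = 2.05e-11). Its signal averaged 3831 ± 760 in inguinal GFP+, 6405 ± 127 in inguinal GFP-, 2307 ± 143 in epididymal GFP+ and 9591 ± 292 in epididymal GFP-. Abhd5, the coactivator of ATGL that G0s2 opposes, rose by 0.39 ± 0.05 in epididymal GFP+ cells (limma adjusted p = 1.71e-05). In those cells transcripts of the ATGL inhibitor and of its coactivator were thus both higher, while that of the enzyme, Pnpla2, was not called. Between depots 2 were higher and 2 lower in inguinal GFP+ cells (50.8% of all genes called), and 3 and 3 in GFP- cells (53.7%).

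Of 14 measured triglyceride synthesis genes, 2 rose and 0 fell with GFP in inguinal cells (12.6% of all genes called), and 7 rose and 2 fell in epididymal cells (41.9%). The list's medians were 0.08 and 0.25. In inguinal cells these were Gpam (0.19 ± 0.04, limma adjusted p = 0.0026), which starts glycerolipid synthesis, and the phosphatidate phosphatase Lpin1 (0.39 ± 0.08, adjusted p = 0.00417). In epididymal cells the phosphatase Lpin3 (2.19 ± 0.14, limma adjusted p = 1.8e-09) and the last enzyme of the pathway, Dgat2 (0.95 ± 0.08, adjusted p = 2.51e-08), rose. The phosphatase Lpin1 (-0.39 ± 0.08, limma adjusted p = 0.000929) and the acyltransferase Mogat2 fell there (-2.52 ± 0.10, adjusted p = 8.24e-12), the latter from 1672 ± 48.3 in GFP- to 279.8 ± 27.9 in GFP+ cells. Lpin3 averaged 19.5 ± 4.38 in epididymal GFP- cells, under 80, like G0s2. Between depots 3 were higher and 5 lower in inguinal GFP+ cells (50.8% of all genes called), and 6 and 4 in GFP- cells (53.7%).

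**Figure D4:**
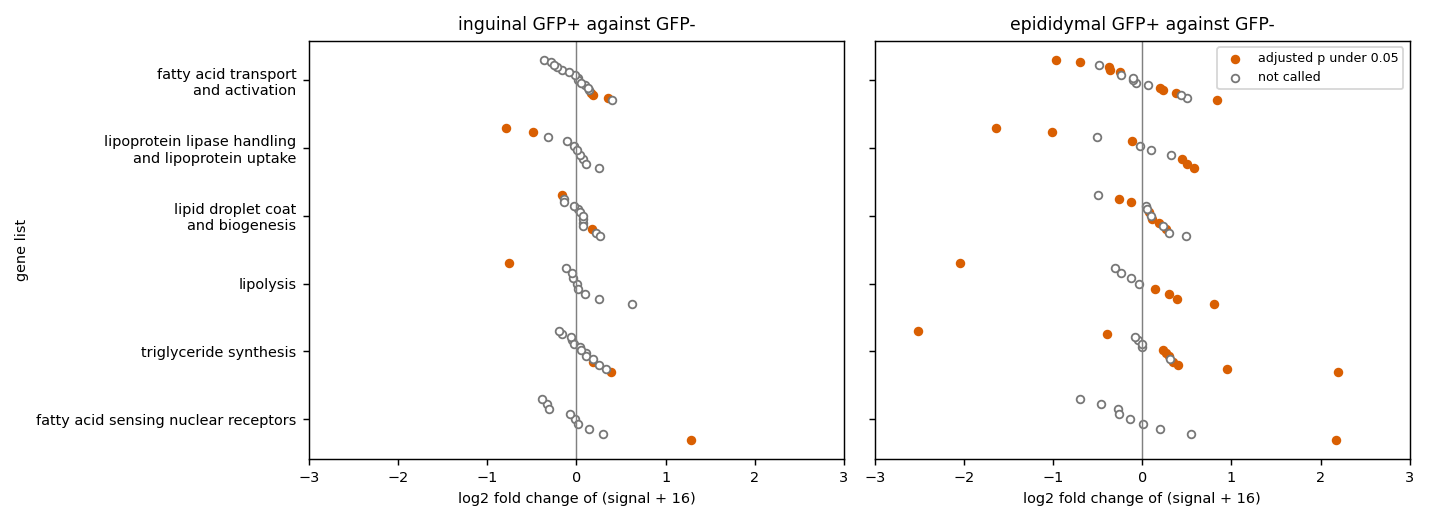
Log2 fold change, GFP+ against GFP-, of each measured gene of the 6 pathway lists (vertical axis) in inguinal (left) and epididymal cells (right); each point is a gene, filled where the adjusted p is under 0.05. Mgll and Mogat2 are the far left points at -2.05 and -2.52 on the right, and Lpin3 (2.19) and Pparg (2.17) the far right ones.

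For each member with a group mean of at least 80, the most similar of 9142 other genes were sought by the root mean square difference of log2 values over the 12 arrays, each gene centred on its own mean. Fabp4 was nearest to the membrane dipeptidase Dpep1 (0.34, where Fabp4's own profile had a root mean square of 1.71), Prelp and Ptges. G0s2 was nearest to the protease Pcsk5 (0.15, own profile 1.17), Epb41l3 and Tspan12. Fabp5 was nearest to Tmem47 (0.08, own profile 0.45), the hyaluronan synthase Has2 and the Wnt receptor Fzd4. Angptl4 was nearest to the transcription factor Twist1 (0.08, own profile 0.30), Echdc3 and Smap2, and Lpl to Btbd3 (0.21, own profile 0.63), Spry2 and Rrad. Plin2 was nearest to Pdrg1 (0.06, own profile 0.43), Timm8a1 and Ppan, and Pnpla2 to Phf8 (0.07, own profile 0.30), Tnip1 and Rabgef1. Lipe, at its low signal, was nearest to Sprr2k (0.16, own profile 0.42), Cadm3 and St8sia5.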

How the data were processed

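Each sample is 1 array, and the authors deposited its linear intensity for every probe set; per the labels' protocols biotin-labelled cRNA was made from Trizol-extracted RNA. How signals were summarised, corrected for background and scaled is not given in the sources used here. No further normalization was applied, and the number of arrays limits the precision. Of 22626 probe sets, 20380 had 1 symbol in the platform annotation, 691 several and 1555 none; only the first kind was named. Old symbols were replaced by matching Entrez numbers to the RefSeq table of GRCm38.p6 (29 kept as given), which left 12393 genes, each standing by the probe set with the highest mean of log2(intensity + 16). limma 3.58.1 in R 4.3.3 (lmFit, eBayes with trend, Benjamini-Hochberg over all genes, threshold 0.05) was fitted on all 12 arrays, and was tested on simulated data. Intervals are 95% from the same fit.

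The 10 genes and all lists were chosen with earlier results of these data known. Named were all members, up to 3 called genes a list and contrast with the smallest adjusted p (1 uncalled where none), Zfp423 and the 3 most similar genes; of these list genes the text gives part, chosen after the values were seen. The alternatives were a replicate block, each array left out, dim genes left out, only the compared groups, no variance trend, pseudocounts of 1 and 64, quantile normalization, median centring, every probe set, and probe sets averaged per gene. Other background corrections and the array slide as a block could not be tried, since scanner files were not used here.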

Additional observations from a re-analysis of the deposited data

Results flagged for a closer look

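The GFP contrast differed between the depots, by the interaction term of limma, for 6 of the 10 genes. The value is the log2 fold change of GFP+ over GFP- in inguinal minus that in epididymal cells. It was -2.49 for Fabp4, where both depots rose, and -2.88 for G0s2, where the epididymal contrast alone was called, from a GFP- signal under 80. For Fabp5 it was -1.59 and for Angptl4 0.99, and in these genes the depots were called in opposite directions. It was 0.90 for Lpl, higher in both depots, and 0.38 for Plin2, called lower in epididymal cells. Over all genes 34.8% were called for this term. The cause was not tested.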

How the results depend on the processing

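Of the 34 calls among the 50 pairs of gene and contrast, 26 were kept in each of the 22 alternatives that gave a value, and none reversed. Cd36 and Cidec had no value with dim genes left out, and the interaction none with only the compared groups, since it needs all 4. The 8 others belonged to Cd36, Lipe, Lpl, Angptl4 and Fabp4 and are given in the report. The number of members called in the inguinal GFP contrast fell from 5 to 3 with probe sets averaged per gene, which brings in dim ones. Leaving out single arrays gave 4 to 5 there, 5 to 6 in the epididymal GFP contrast, 6 to 8 and 7 to 9 between depots in GFP+ and GFP- cells, 6 to 7 for the interaction and 13 to 16 of the 19 probe sets. The interaction of Cd36 (-0.92, limma adjusted p = 0.0641) passed the threshold when the first GFP- array of the inguinal (adjusted p = 0.0434) or of the epididymal depot (adjusted p = 0.035) was left out.

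The replicate number as a block left the counts at 5, 6, 8, 9 and 6 members and 15 probe sets, and changed no call. The labels do not say that numbers pair the samples, and the deviations of same-numbered arrays from their group means correlated at -0.13 to 0.11 over 12 pairs.

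Uncalled values near 0 changed sign. For Lipe in the inguinal GFP contrast they were 0.0195 after quantile normalization, 0.0175 after median centring and 0.00041 with a pseudocount of 64, and its interaction was -0.0168 with a pseudocount of 1. The mean of probe sets gave 0.17 for both Cd36 and Pnpla2 in the epididymal GFP contrast. Cidec between depots in GFP+ cells was -0.27 with a pseudocount of 1, and the Pnpla2 interaction was 0.00062 after median centring. With single arrays left out, Lipe ranged from -0.17 to 0.28 in the inguinal and -0.14 to 0.13 in the epididymal GFP contrast and from -0.15 to 0.31 for the interaction. Cidec ranged from -0.32 to 0.43 in the inguinal GFP contrast, from -0.45 to 0.30 between depots in GFP+ cells and from -0.0746 to 0.68 for the interaction. Cd36 ranged from -0.19 to 0.13 and Pnpla2 from -0.0481 to 0.0355 in the epididymal GFP contrast. Signals near background, with 3 arrays a group, limit what Cd36, Cidec and Lipe can show.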
